A study of Mus musculus with 4 samples.

Results

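The BCL2 family decides whether a cell keeps its mitochondria intact or releases their contents and dies, and 10 of its genes were examined in leukemia-initiating cells (LICs) of the MLL-AF9 model with and without CD274. The 10 genes were taken by their symbols from the 27179 genes in the deposited values, and all 10 were found. They were 5 anti-apoptotic genes (Bcl2, Bcl2l1, Mcl1, Bcl2a1b and Bcl2a1d), 2 effectors (Bax and Bak1) and 3 genes of BH3-only proteins (Bcl2l11, Bid and Bad). The data were RNA-seq of LICs, with 2 libraries labelled WT and 2 labelled CD274-/- (4 in all), the latter called CD274-null below. The labels give bone marrow, the strain C57BL/6, an age of 6 weeks and the genotypes wild type and CD274-/-. In both groups the fusion oncogene MLL-AF9 came from a retrovirus with a YFP tag put into Lin- fetal liver cells, which were given to lethally irradiated recipients. The labels call the cells LSC, with no gate, and the study takes Mac-1+/c-Kit+ cells as its LICs. Its methods for the sequencing libraries speak of RNA from tissue and do not mention sorting there. The sources used here do not give the round of transplantation, the number of mice behind a library or the number of independent infections, so p-values measure only the spread between these libraries, which may be technical.

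The anti-apoptotic proteins of the family hold the effectors BAX and BAK in check, and BH3-only proteins release or activate the effectors, which then open pores in the outer mitochondrial membrane. Cytochrome c escapes through the pores and starts the caspases. Hematopoietic stem cells and many myeloid leukemias are known to depend on MCL1 in particular, and much of the family's control acts on the proteins, through cleavage, phosphorylation and degradation, which RNA does not show.

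Levels are given as FPKM, the fragments on a gene scaled by gene length and by the mapped reads of the library. Because whole reads lie behind FPKM, reads per library could be recovered from the ratios between libraries, and they summed to between 8452662 and 11048767 on genes per library. Cd274, the targeted gene on chromosome 19, had an FPKM of 2.80 and 0.945 in the libraries labelled WT and of 1.43 and 2.29 in those labelled CD274-null. These values overlapped, and a value summed over a gene does not show which exons were read. Every direction below therefore rests on the labels, which Cd274 RNA did not separate. Itgam, the gene of Mac-1, had an FPKM between 100 and 174 and Kit between 6.59 and 19.5, with the lowest Kit value in WT replicate 1. Hoxa9, a known target of MLL-AF9, ranged from 71.3 to 75.8, while Mpo, a gene of myeloid granules and the only candidate among 7 LIC markers, had 444 and 403 against 1427 and 925. Xist, which is transcribed from the inactive X chromosome, was at 2.57 in WT replicate 1 and between 51.1 and 107 in the other libraries. Among markers of other cells, 10 neutrophil genes summed to an FPKM of 43471 and 8789 in the libraries labelled WT and of 18346 and 31411 in those labelled CD274-null, with all 10 tested, and this sum was carried by S100a8 and S100a9. Ly6g (0.485 to 4.27 in WT, 8.10 and 19.1 in CD274-null) and Ltf (7.74 and 109, then 117 and 216) ran in another order, with both CD274-null libraries above both WT libraries. By estimate 8 of the 10 were higher in CD274-null and 2 were lower. The 2 were Mmp9 (72.0 and 43.0 against 30.5 and 41.7), with both CD274-null libraries below both WT libraries, and Cxcr2 (19.7 and 1.03 against 2.86 and 2.11). The sum of 10 B cell genes was 13.1 and 37.2 against 37.7 and 39.9, nearly all of it Cd79b, while Ms4a1 was listed at 0 in 3 libraries. For 10 T cell genes it was 1.04 to 3.15 in WT against 2.12 to 6.78 in CD274-null. Erythroid genes summed to 55.8 in WT replicate 2 and to at most 5.41 elsewhere, with Slc4a1 at 0 in every library. For 8 plasma cell genes the sum was 68.1 to 178 and 119 to 148, mostly Xbp1, and Jchain rose in CD274-null (0.370 and 0.514 against 12.3 and 10.5, adjusted p = 0.0369 from limma), a call that was lost with GC correction, with voom, without moderation and without either CD274-null library. The 8 macrophage genes summed to 209 to 263 over all 4 libraries, but 2 of them were candidates in opposite directions, Vcam1 (117 and 92.3 against 53.7 and 59.8) and Cd68 (51.5 and 58.1 against 86.9 and 113). The part of these cells in the values below was not tested, and in bulk RNA fewer expressing cells and less RNA per cell cannot be told apart.

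Bcl2a1b and Bcl2a1d encode A1, an anti-apoptotic protein of myeloid and lymphoid cells, and belong to a group of near-identical copies on mouse chromosome 9. Their coding sequences are shown because reads of 50 bases can hardly separate them. Over 516 coding bases without the stop codon, Bcl2a1b and Bcl2a1d differ at 6 positions (98.8% identical), and Bcl2a1b and a further copy, Bcl2a1a, at 11 (97.9%). Below are coding bases 1 to 150 of the GENCODE transcripts of GRCm38, 5′ to 3′, at chr9:89199360-89199509 (plus strand), chr9:88731570-88731719 (minus strand) and chr9:88957051-88957200 (plus strand), each within 1 exon. Capitals mark the 7 positions where the 3 genes are not all alike.
Bcl2a1b: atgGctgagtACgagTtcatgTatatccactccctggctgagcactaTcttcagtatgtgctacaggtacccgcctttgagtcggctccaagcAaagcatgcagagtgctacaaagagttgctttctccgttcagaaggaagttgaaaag
Bcl2a1d: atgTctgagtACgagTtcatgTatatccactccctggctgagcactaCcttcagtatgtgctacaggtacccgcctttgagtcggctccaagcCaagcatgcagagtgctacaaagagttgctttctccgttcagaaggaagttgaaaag
Bcl2a1a: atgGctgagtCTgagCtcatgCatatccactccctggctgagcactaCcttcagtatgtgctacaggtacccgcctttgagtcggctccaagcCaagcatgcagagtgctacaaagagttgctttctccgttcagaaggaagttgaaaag

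Of all windows of 50 bases in the Bcl2a1b transcript, 79.2% were also found in transcripts of other genes, and of those in Bcl2a1d 79.5%. The partners were Bcl2a1d, Bcl2a1b, Bcl2a1a, for a few windows Bcl2a1c, and the annotated gene Gm29094, which overlaps 49.1% of the bases of Bcl2a1b on the same strand. The split of reads among these genes depends on the authors' counting, which is not given in the sources used here, and single values for Bcl2a1b, Bcl2a1d and Bcl2a1a are uncertain for that reason. Other members shared fewer windows: 24.5% in Bid, with Bcl2l13 on the other strand, 18.2% in Bak1, with Ggnbp1 on the other strand, 13.8% in Bax, with Gm45808 on the same strand, 6.75% in Bcl2, mostly with D630008O14Rik on the other strand, 0.221% in Bcl2l11 and 0% in Mcl1, Bcl2l1 and Bad. The TruSeq v2 kit does not mark the strand, so in the overlaps of Bid, Bak1 and Bcl2 reads from both strands cannot be told apart.

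The upstream sequences of the copies are alike as well. The 250 bases before the annotated start of Bcl2a1b (chr9:89199023-89199272, plus strand) and of Bcl2a1d (chr9:88731851-88732100, minus strand) from RefSeq on GRCm38.p6 are shown 5′ to 3′, with capitals on GAGGAAGT, 8 letters around the GGAA core that ETS factors such as PU.1 recognise. The letters were chosen after the sequences were seen.
Bcl2a1b: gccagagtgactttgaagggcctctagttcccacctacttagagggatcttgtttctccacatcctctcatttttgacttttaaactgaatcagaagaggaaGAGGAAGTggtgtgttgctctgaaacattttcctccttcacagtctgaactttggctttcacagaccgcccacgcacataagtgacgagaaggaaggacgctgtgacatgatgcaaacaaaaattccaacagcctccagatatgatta
Bcl2a1d: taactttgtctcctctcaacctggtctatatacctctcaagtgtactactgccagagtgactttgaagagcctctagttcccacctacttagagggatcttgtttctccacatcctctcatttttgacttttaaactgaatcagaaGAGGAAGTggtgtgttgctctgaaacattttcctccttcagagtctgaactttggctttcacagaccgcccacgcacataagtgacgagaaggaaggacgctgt

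On either strand, these letters occurred once in the window of each of Bcl2a1a, Bcl2a1b, Bcl2a1c and Bcl2a1d, beginning 104 bases before the start in Bcl2a1d and 148 in Bcl2a1b, whose starts are annotated at different points of the same sequence. Of all 32851 windows of the same length in the table, 2.44% held the letters. All 10 members had a window, and besides Bcl2a1b and Bcl2a1d, from which the letters were taken, Bad and Bak1 held them. Nothing is read from this, since a gene can have several windows and the letters were chosen on the copies.

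In every library Mcl1 was the most abundant member, and the effectors and Bid followed. FPKM corrects for gene length, so levels can be compared roughly between genes. The gene lengths and strand setting used are not given, and reads of shared or overlapping stretches can shift a level. Mcl1 (NCBI gene 17210, chromosome 3, 95656944 to 95663179 of GRCm38), whose short-lived protein binds BIM and BAK, had an FPKM of 173 and 128 in the libraries labelled WT and of 117 and 155 in those labelled CD274-null, from 3616 to 6971 reads. The groups overlapped, with both extremes in replicate 1. By its mean FPKM over all libraries, 143, Mcl1 stood at the 96.1th percentile of the 13230 tested genes. It made up 79.7% to 88.3% of the summed FPKM of the 5 anti-apoptotic members.

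Next in order came Bax (mean FPKM 77.4), Bak1 (68.8) and Bid (61.03). Their ranges over the libraries overlapped, and each stood above the next in 3 of 4 libraries, so the order among these genes did not exceed their spread. Bid lay above Bad (25.5) in all 4 libraries without overlap. Bad and Bcl2l1 (16.7) overlapped, while Bcl2l1 stood above Bcl2l11 (5.62) in all 4. At the low end, Bcl2l11, Bcl2a1b (4.14), Bcl2 (2.61) and Bcl2a1d (1.41) overlapped from neighbour to neighbour. The family thus spanned the 11.9th percentile of tested genes, for Bcl2a1d, to the 96.1th.

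**Figure D1:**
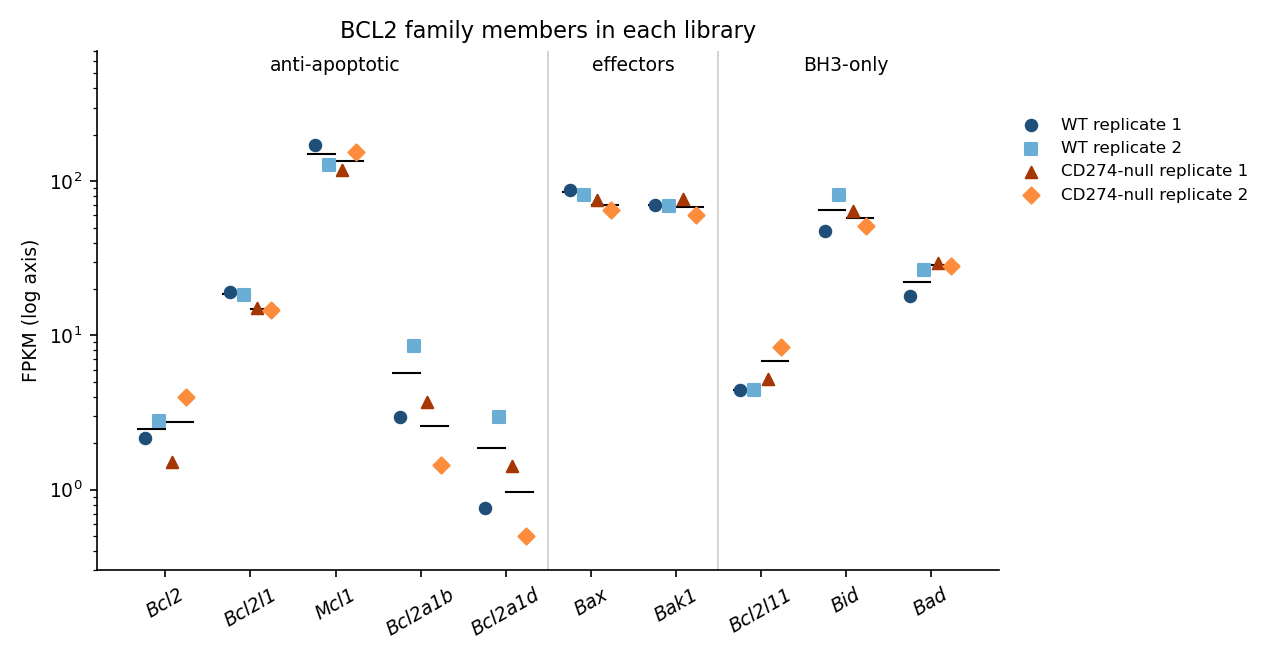
FPKM (log axis) of the 10 members in each of the 4 libraries, marked by colour and shape, with short lines at the mean of each group. Mcl1 sits between 117 and 173 in every library, Bax, Bak1 and Bid between 47.9 and 88.2, and Bcl2a1d at or below 2.96.

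No member passed the test across all genes in the comparison of CD274-null with WT. The test was limma on log2(FPKM + 0.5), run over the 13230 genes whose mean FPKM reached 0.5. Of the members, 0 of 10 had an adjusted p under 0.05 (Benjamini-Hochberg over all genes tested), where 0.0756% of all tested genes did. A gene was called a candidate, with the thresholds used in the study, when it changed more than 1.5-fold at an unadjusted p below 0.01. None of the 10 was a candidate (0 of 10), against 3.63% of all genes. At an unadjusted p under 0.05 the count was again 0 of 10, against 13.7%, and limma's voom on the recovered reads also gave 0 by each of these rules. The adjusted p of the members ran from 0.509 to 0.988 in limma. In 4 of 10 members the groups did not overlap, which also held for 47.3% of all tested genes. Of these, Bcl2l11 and Bad were higher in both CD274-null libraries, an arrangement found in 25.6% of all tested genes, and Bcl2l1 and Bax were lower in both, found in 21.8%. By estimate 3 members were higher and 7 lower in CD274-null, with a median log2 fold change of -0.14, against 0.01 over all tested genes.

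**Figure D2:**
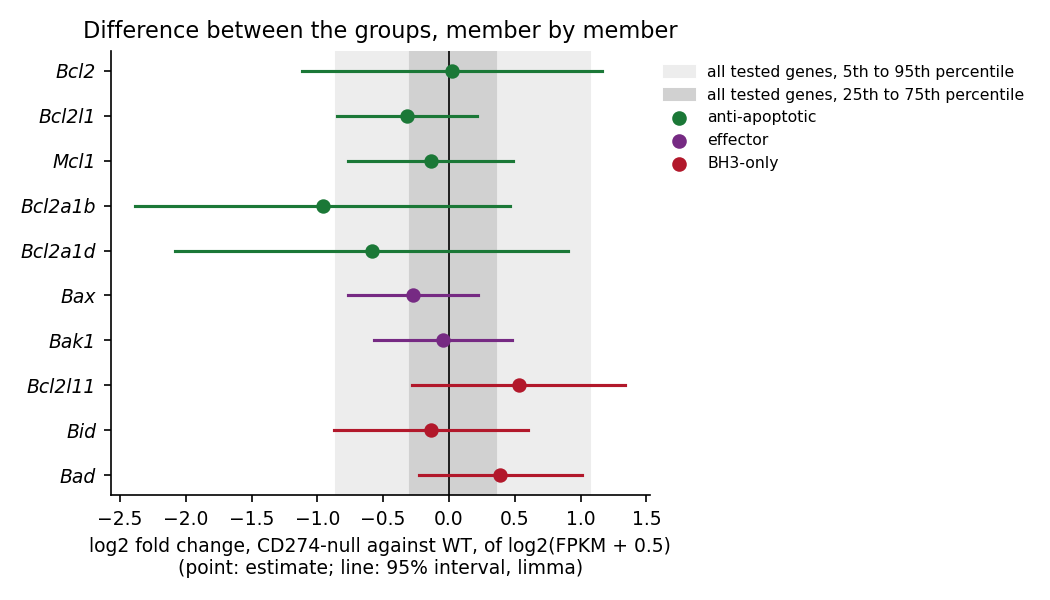
Log2 fold change of each member between CD274-null and WT on the log2(FPKM + 0.5) scale (points, limma) with its 95% interval (lines), over the range of all tested genes (grey). All 10 intervals include 0, and the widest belong to Bcl2a1b and Bcl2a1d.

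Among the anti-apoptotic genes, Bcl2l1 separated the groups with the least spread. Bcl2l1, which encodes BCL-XL (gene 12048, chromosome 2, 152758732 to 152833803), stood at an FPKM of 19.0 and 18.2 in the libraries labelled WT and of 14.98 and 14.7 in those labelled CD274-null, from 314 to 521 reads. Both CD274-null values lay below both WT values, and the means of 18.6 ± 0.543 and 14.8 ± 0.226 (SD, n = 2) were farther apart than either SD. The log2 fold change was -0.32 (standard error 0.22, 95% interval -0.85 to 0.21, adjusted p = 0.547 from limma). A linear model that uses only the gene's own spread gave an unadjusted p of 0.0103 and an adjusted p of 0.492, and over all alternative fits to the 4 libraries the adjusted p ran from 0.445 to 0.638. After correction of each library for GC content the log2 fold change was -0.49 (unadjusted p = 0.0730, adjusted p = 0.449 from limma). The interval in limma borrows spread from other genes and spans falls as well as small rises.

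For Mcl1 the log2 fold change was -0.14 (95% interval -0.77 to 0.49, adjusted p = 0.845 from limma), less than the spread between replicates, 1.35-fold within WT and 1.32-fold within CD274-null. Bcl2 (gene 12043, chromosome 1, 106538176 to 106714290), the founding member of the family, had an FPKM of 2.18 and 2.78 in WT against 1.52 and 3.98 in CD274-null, from 104 to 307 reads. The lowest and the highest value both belonged to CD274-null libraries, which differed 2.62-fold from each other. Its log2 fold change of 0.02 (95% interval -1.12 to 1.16, adjusted p = 0.988 from limma) changed sign when the libraries were brought to the same quantiles (-0.05). Within a library, Mcl1 RNA exceeded Bcl2 RNA 79.4-fold and 46.0-fold in WT against 77.2-fold and 38.9-fold in CD274-null, as FPKM.

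The A1 copies varied more between replicates than between groups. Bcl2a1b (gene 12045, chromosome 9, 89199273 to 89207838) stood at an FPKM of 2.94 and 8.48 in the libraries labelled WT and of 3.70 and 1.45 in those labelled CD274-null, from 26, 66, 25 and 11 reads. Bcl2a1d (gene 12047, chromosome 9, 88723288 to 88731850) had 0.760 and 2.96 against 1.42 and 0.505, from 7, 24, 10 and 4 reads. In both genes WT replicate 2 was highest and CD274-null replicate 2 lowest, and the groups overlapped. Counting alone gave Bcl2a1b an exact Poisson interval (95%) of 1.92 to 4.31 in WT replicate 1 and of 6.56 to 10.8 in WT replicate 2. These intervals did not overlap, but they take no account of how shared reads were split. Log2 fold changes were -0.96 for Bcl2a1b (95% interval -2.39 to 0.47, adjusted p = 0.509 from limma) and -0.59 for Bcl2a1d (-2.08 to 0.91, adjusted p = 0.695). Without WT replicate 2 they were -0.27 and 0.14, and without WT replicate 1 they were -1.65 and -1.32. Over all 4 omissions Bcl2a1b ran from -1.65 to -0.27.

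Bcl2a1a, which is outside the 10 members and was chosen after its values were seen, was highest in a different library. Its FPKM was 1.30 and 2.34 in WT against 4.83 and 1.01 in CD274-null, from 12, 19, 34 and 8 reads. A sum over Bcl2a1a, Bcl2a1b and Bcl2a1d does not depend on how single reads were split among these copies. It still depends on reads counted to Gm29094, counted more than once or left out. This sum was an FPKM of 5.005 and 13.8 in WT against 9.95 and 2.96 in CD274-null. The sum thus kept WT replicate 2 highest and CD274-null replicate 2 lowest, and the groups overlapped. The 2 libraries with the larger A1 sums were those with the smaller neutrophil marker sums given above. This did not hold for Ly6g, Ltf, Cxcr2 or Mmp9 alone, and the part of neutrophils in this was not tested.

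**Figure D3:**
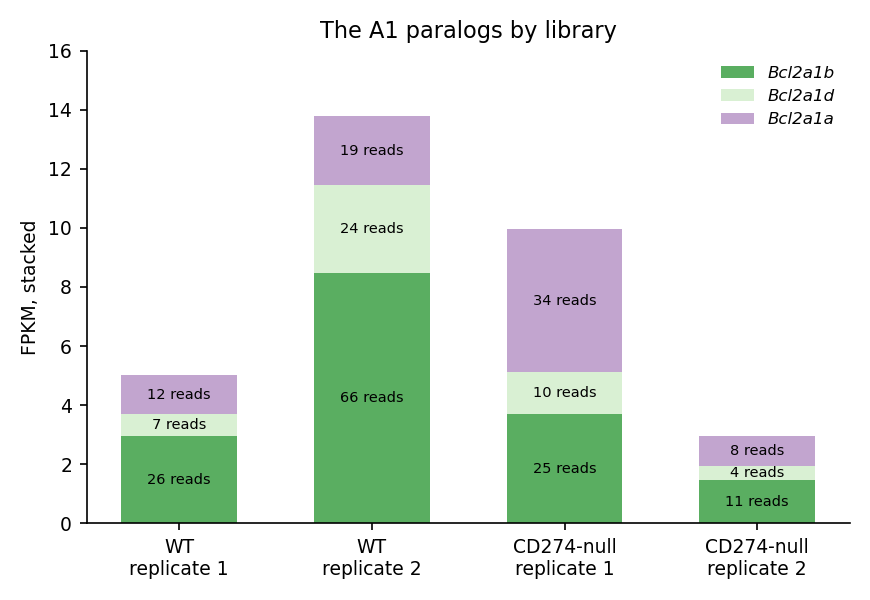
Stacked FPKM of Bcl2a1b, Bcl2a1d and Bcl2a1a in each library, with the reads behind each block. The stack is 13.8 in WT replicate 2 and 2.96 in CD274-null replicate 2, and Bcl2a1a has its largest block, 34 reads, in CD274-null replicate 1.

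The effectors were abundant in both groups. Bax (gene 12028, chromosome 7, 45461695 to 45466903) stood at an FPKM of 88.2 and 81.3 in the libraries labelled WT and of 75.1 and 65.1 in those labelled CD274-null, from 563 to 887 reads. Both CD274-null values were lower than both WT values, but the log2 fold change of -0.28 (standard error 0.20, 95% interval -0.77 to 0.22) had an adjusted p of 0.573 in limma. Without CD274-null replicate 2 it was -0.17. Bax has a GC content of 63.5%, above 99.3% of the tested genes with a transcript, and fold changes followed GC content across genes in these libraries (Spearman's rho 0.271 over 11435 genes, which are not independent replicates). After correction of each library for GC content, the log2 fold change of Bax was -0.51 (unadjusted p = 0.0713, adjusted p = 0.447 from limma, against 0.447 to 0.649 over all alternative fits to the 4 libraries).

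Bak1 (gene 12018, chromosome 17, 27019812 to 27028627), the effector that sits in the mitochondrial membrane before activation, had 69.9 and 69.4 in WT against 76.1 and 60.0 in CD274-null. The CD274-null libraries lay on either side of the WT libraries. Its log2 fold change was -0.04 (95% interval -0.57 to 0.48, adjusted p = 0.946 from limma), and -0.25 after GC correction (adjusted p = 0.694). Bax and Bak1 stood close to each other in each library, with a ratio of 1.26 and 1.17 in WT against 0.987 and 1.08 in CD274-null. The ratio of Bax to Bcl2l1 was 4.65 and 4.46 in WT against 5.01 and 4.44 in CD274-null, so the libraries of both groups overlapped in this ratio although each gene alone separated them.

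Of the BH3-only members, Bcl2l11 and Bad had the larger estimates. Bcl2l11, which encodes BIM (gene 12125, chromosome 2, 128126038 to 128162547), stood at an FPKM of 4.44 and 4.43 in the libraries labelled WT and of 5.19 and 8.43 in those labelled CD274-null, from 227 to 423 reads. The WT libraries were nearly equal, both CD274-null libraries were higher, and CD274-null replicate 2 was 1.63-fold above CD274-null replicate 1. The log2 fold change was 0.53 (standard error 0.33, 95% interval -0.28 to 1.34, adjusted p = 0.518 from limma), 0.20 without CD274-null replicate 2 and 0.86 without CD274-null replicate 1. Bad (gene 12015, chromosome 19, 6941861 to 6951905), whose protein binds BCL2 and BCL-XL unless it is phosphorylated, had 18.04 and 26.4 in WT against 29.3 and 28.3 in CD274-null, from 303 to 409 reads. The groups did not overlap, and WT replicate 1 stood apart from the other 3 libraries. Its log2 fold change of 0.39 (95% interval -0.23 to 1.01, adjusted p = 0.529 from limma) was 0.12 without WT replicate 1, 0.66 without WT replicate 2 and 0.18 after GC correction.

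Bid (gene 12122, chromosome 6, 120893119 to 120917062), whose protein is cut by caspase-8 and carries the death receptor signal to mitochondria, had an FPKM of 47.9 and 81.6 in WT against 63.7 and 50.9 in CD274-null. The WT libraries held both the lowest and the highest value and differed 1.71-fold. The log2 fold change was -0.13 (95% interval -0.87 to 0.60, adjusted p = 0.879 from limma). From high to low, Bid ran from WT replicate 2 over CD274-null replicates 1 and 2 to WT replicate 1. This was the reverse order of the neutrophil marker sum, though not of Ly6g, Ltf, Camp, Cxcr2 or Mmp9. The part of neutrophils in this was not tested.

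Summed by role, the 5 anti-apoptotic members had an FPKM of 198 and 160 in the libraries labelled WT and of 139 and 175 in those labelled CD274-null. The 5 pro-apoptotic members had 229 and 263 in WT against 249 and 213 in CD274-null. The ratio of pro-apoptotic to anti-apoptotic RNA was 1.16 and 1.64 in WT against 1.796 and 1.21 in CD274-null. In each of these sums and in the ratio the groups overlapped, and the ratio was higher in WT replicate 2 and CD274-null replicate 1 than in the other libraries.

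Further genes of the family were examined from a list of 16, of which 11 were tested. None had an adjusted p under 0.05 and 0 were candidates, while 1 had an unadjusted p under 0.05 (limma), against 3.63% candidates and 13.7% under 0.05 among all tested genes. By estimate 8 were higher and 3 lower, with a median log2 fold change of 0.49. The smallest p values belonged to Bcl2l12 and Pmaip1. Bcl2l12, a distant relative of the family, had an FPKM of 16.8 and 17.5 in the libraries labelled WT and of 25.8 and 27.2 in those labelled CD274-null (0.61 on the log2 scale, SE 0.21, adjusted p = 0.325 by limma). The groups did not overlap, and the fold was 0.57 to 0.65 on the log2 scale without any 1 library. Its unadjusted p was not under 0.05 after GC correction (0.42) or without WT replicate 1 or either CD274-null library.

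Pmaip1, which encodes the BH3-only protein NOXA, a binding partner of MCL1, had 58.7 and 60.3 in WT against 74.4 and 243 in CD274-null, from 1630 to 6414 reads. The groups did not overlap. Its log2 fold change of 1.17 (SE 0.52, adjusted p = 0.387 by limma) was 0.32 without CD274-null replicate 2, and 2.02 without CD274-null replicate 1, where it was a candidate. Its unadjusted p, 0.0632 in limma, ran from 0.0181 with the replicate block to 0.302 without moderation over all alternative fits to the 4 libraries. It was under 0.05 only with the block, with GC correction (0.0474) or with both. Bbc3, which encodes PUMA, had 4.37 and 4.47 in WT against 3.55 and 11.4 in CD274-null, and its log2 fold change went from 0.49 to -0.28 without CD274-null replicate 2 and to 1.27 without CD274-null replicate 1. Bbc3, Bmf and Bik fall outside the naming rule and were picked with their values in view. Bmf was highest in CD274-null replicate 1 instead (1.36 and 1.63 in WT against 2.98 and 1.82), and Bik, at 2 to 13 reads per library, had 0.550 and 0.208 against 0.600 and 1.38. Relative to the WT mean, CD274-null replicate 2 was 4.08-fold for Pmaip1, 2.57-fold for Bbc3, 3.65-fold for Bik and 1.90-fold for Bcl2l11, but 1.27-fold for Bad and 0.786-fold for Bid. CD274-null replicate 1 had 1.25-fold for Pmaip1, 0.802-fold for Bbc3 and 1.17-fold for Bcl2l11, so the high levels of these 3 genes were those of 1 library, while it had 1.58-fold for Bik and 1.99-fold for Bmf.

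**Figure D4:**
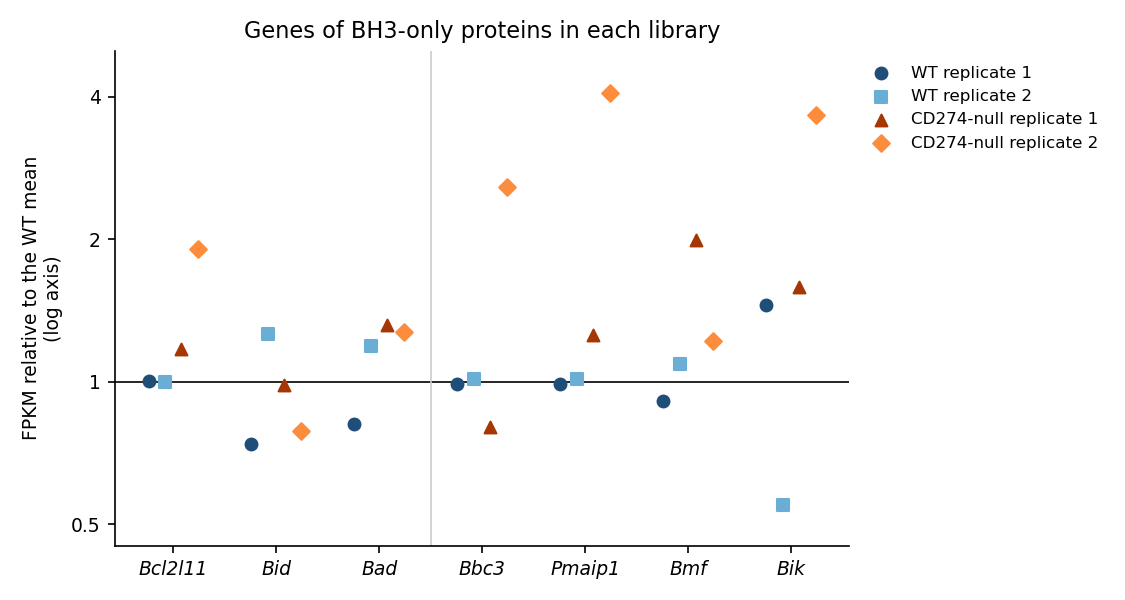
FPKM of 7 genes of BH3-only proteins in each library, relative to the mean of the WT libraries (log axis), with the 3 members on the left of the grey line. CD274-null replicate 2 stands at 1.90 for Bcl2l11, 2.57 for Bbc3 and 4.08 for Pmaip1, and CD274-null replicate 1 between 0.802 and 1.25 for these genes.

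Downstream and upstream of the family, 52 further genes were listed in 4 groups, none of which had a gene with an adjusted p under 0.05. Of 13 tested genes of the apoptosome and the caspases, 8 were higher and 5 lower (median log2 fold change 0.10), 0 were candidates, against 3.63% of all tested genes, and 1 had an unadjusted p under 0.05, against 13.7%. That was Htra2, a mitochondrial protease released into the cytosol in apoptosis, with an FPKM of 54.0 and 37.6 in the libraries labelled WT and of 73.2 and 77.1 in those labelled CD274-null (0.73 on the log2 scale, adjusted p = 0.313 from limma). Its unadjusted p was not under 0.05 after GC correction (0.48 on the log2 scale), alone or with the replicate block, or without moderation. With a library left out, its log2 fold change ran from 0.47, without WT replicate 2, to 0.99, without WT replicate 1. Next was the X-linked Aifm1, which encodes apoptosis-inducing factor, with 17.4 and 16.8 against 26.8 and 20.0 (0.42, adjusted p = 0.478), and its log2 fold change was 0.22 without CD274-null replicate 1. In both genes the CD274-null libraries were higher than both WT libraries, and the part of the Xist difference in Aifm1 was not tested.

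Of 8 tested genes in the list of inhibitor of apoptosis proteins, 3 were higher and 5 lower (median -0.09), 3 had an unadjusted p under 0.05, against 13.7% of all tested genes, and 1 was a candidate, against 3.63%. The 3 were Naip5, Birc6 and Naip6 (6.01 and 8.54 against 12.1 and 12.1), of which Naip5 and Naip6 share sequence and so are not independent. Naip5, the candidate, had an FPKM of 10.1 and 15.8 in the libraries labelled WT and of 25.3 and 34.1 in those labelled CD274-null (1.19 on the log2 scale, SE 0.30, unadjusted p = 0.00701, adjusted p = 0.272 by limma). NAIP5 is known as an inflammasome sensor of bacterial flagellin rather than for holding back caspases in mitochondrial apoptosis, and 36.9% of the 50-base windows of Naip5 were shared with other transcripts, chiefly of Naip6, so its reads are uncertain. Naip5 was a candidate without WT replicate 2 but not without any other library. Birc6, which encodes a very large inhibitor of apoptosis, had 18.8 and 22.0 against 13.4 and 11.5, with a log2 fold change of -0.69 (unadjusted p = 0.0251, adjusted p = 0.319 from limma), and its unadjusted p was not under 0.05 without WT replicate 2 or either CD274-null library.

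Of 8 tested death receptor genes, 5 were higher and 3 lower (median 0.23), 2 had an unadjusted p under 0.05, against 13.7% of all tested genes, and 0 were candidates, against 3.63%. Casp8, whose protein cuts BID, had an FPKM of 22.3 and 26.9 in the libraries labelled WT and of 40.5 and 43.2 in those labelled CD274-null (0.76 on the log2 scale, SE 0.22, unadjusted p = 0.0116, adjusted p = 0.284 from limma). Tnfrsf1a, a receptor of TNF, had 46.1 and 61.6 against 94.1 and 73.2 (0.63, adjusted p = 0.349). The unadjusted p of Tnfrsf1a was not under 0.05 with GC correction (0.46), quantile scaling, the replicate block, no trend or no moderation, nor without WT replicate 1 or either CD274-null library, and that of Casp8 was not without either CD274-null library. Both genes were higher in both CD274-null libraries, while Bid itself overlapped between the groups.

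Of 20 tested genes whose proteins act on the family, 8 were higher and 12 lower (median -0.10), 2 had an unadjusted p under 0.05, against 13.7% of all tested genes, and 1 was a candidate, against 3.63%. Trp53, the candidate, encodes p53, which is known to activate transcription of Bax, Bbc3 and Pmaip1. It had an FPKM of 31.7 and 31.4 in the libraries labelled WT and of 66.2 and 54.9 in those labelled CD274-null (0.92 on the log2 scale, SE 0.21, unadjusted p = 0.00417, adjusted p = 0.255 from limma), and it was a candidate without WT replicate 1 but not without any other library. Beside it, Bax was lower in both CD274-null libraries, Pmaip1 was higher in both and Bbc3 was higher in 1 of them. Cdkn1a and Mdm2, other known targets of p53, fall outside the naming rule. Cdkn1a had 63.1 and 32.1 in WT against 40.7 and 108 in CD274-null, and Mdm2 had 42.7 and 32.7 against 34.8 and 48.5. Akt1, a kinase that phosphorylates BAD, had 189 and 173 against 133 and 109 (-0.59, unadjusted p = 0.0342, adjusted p = 0.339), and its unadjusted p was not under 0.05 without trend, without moderation, or without WT replicate 1 or either CD274-null library. Over all 68 listed genes besides the members, 60 were tested. Of those 60, 2 were candidates, both higher, against 3.63% of all tested genes, 9 had an unadjusted p under 0.05, against 13.7%, and the groups did not overlap in 31 (51.7%), against 47.3%.

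**Figure D5:**
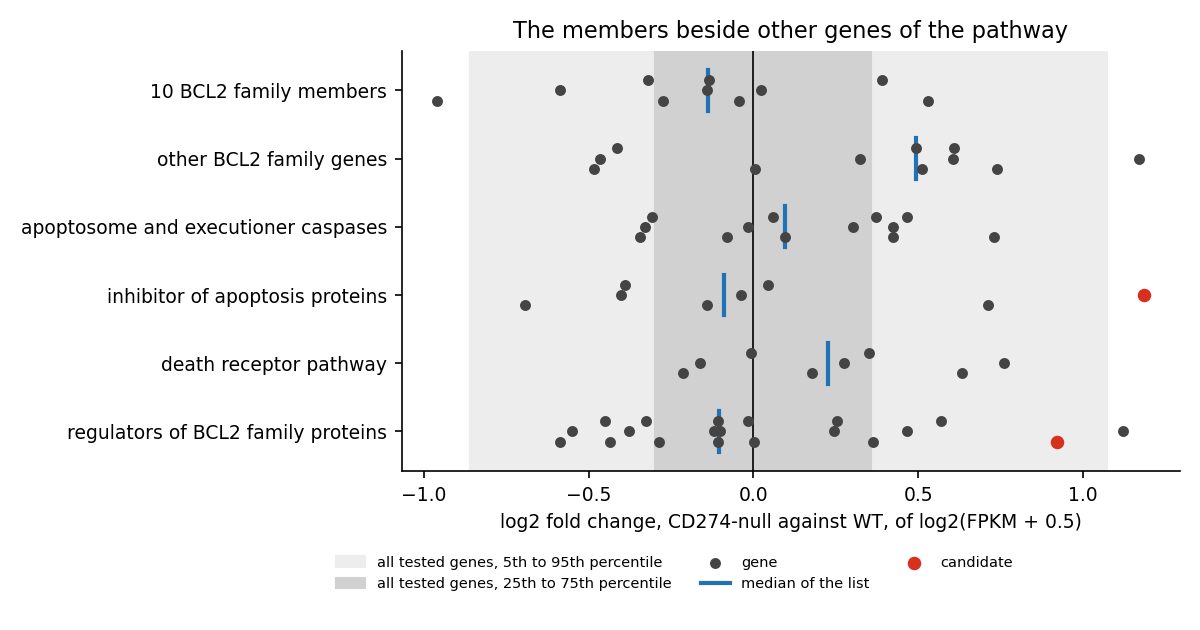
Log2 fold change between CD274-null and WT of each tested gene by list (points), with the median of the list (blue line), candidates in red, and the range of all tested genes in grey. The candidates are Naip5 at 1.19 and Trp53 at 0.92, and the medians run from -0.14 for the 10 members to 0.49 for the other genes of the family.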

How the data were processed

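The values deposited by the authors are FPKM on a linear scale, with 1 column for each library. Per the study's methods and the submitters' processing notes, TruSeq v2 libraries were read at about 50 bases and aligned to GRCm38 with TopHat2 2.0.12 after CASAVA 1.8.2. The program, gene lengths and strand setting behind FPKM are not given in the sources used here. NCBI gene numbers were turned into symbols with RefSeq (GRCm38.p6), and 25275 of 27179 matched.

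Reads were recovered from ratios of FPKM between libraries up to a factor common to all libraries. This gave reads for 100% of the 17083 genes detected in 2 or more libraries, where all reads of a gene can be too few by one common factor. The lengths the members' reads imply were 0.803 to 1.10 times those of their transcripts, relative to the median gene.

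Groups were compared by limma 3.58.1 (R 4.3.3), using eBayes with a trend after lmFit, on log2(FPKM + 0.5), with a mean FPKM of at least 0.5, no covariates and Benjamini-Hochberg adjustment over 13230 genes. Fold changes are on that scale, which understates low genes. Read recovery and the fit were first tested on simulated data. Named genes were all members and, of each other list, its candidates or, with fewer than 2, its 2 genes of smallest p. Members and lists were chosen with earlier results of these data known. Alternatives were a pseudocount of 1 or 0.1, no filter or a mean FPKM of at least 5, quantile or median scaling, eBayes without trend, no moderation, a replicate block, GC correction (loess, span 0.3), voom, and leaving out each library. Identities were aligned with Biopython 1.88, figures used Python 3.11.15, and 0 sample columns were left unassigned. Intervals from reads cover counting error only. Protein sequences were not used here.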

Additional observations from a re-analysis of the deposited data

How the results depend on the processing

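No member that was tested was called or a candidate under any of the alternatives run, which were 12 other fits and 4 with a library left out, where the lone library of a group is assumed to vary like the others. With a mean FPKM of at least 5, Bcl2, Bcl2a1b and Bcl2a1d were not tested. The number of members with an unadjusted p under 0.05 was 0, except 1 without moderation (Bcl2l1) and 0 to 1 with a library left out (Bcl2a1b without WT replicate 1 and Bad without WT replicate 2). Of the 117 values of the members under other fits, 116 kept their direction, the exception being Bcl2 after quantile normalization (-0.050), where Cd274 was -0.0026. With a library left out, 32 of 40 kept it. The range was -0.55 to 0.60 for Bcl2, -0.36 to 0.077 for Mcl1, -1.32 to 0.14 for Bcl2a1d, -0.21 to 0.13 for Bak1, -0.52 to 0.25 for Bid, -0.59 to 1.24 for Bcl2a1a, -0.28 to 1.27 for Bbc3 and -0.51 to 0.68 for Cd274. The cause of these turns was not tested.

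Over all genes, the number with an adjusted p under 0.05, 10 as reported, was 1 with no filter, 4 with a mean FPKM of at least 5, 5 with quantile or median scaling, 6 without trend, 0 without moderation, with GC correction (alone or with the replicate block) and with voom, and 0 to 41 with a library left out (41 without WT replicate 1, 14 without WT replicate 2 and 0 without either CD274-null library). Candidates numbered 480 as reported, 170 without moderation, 294 with GC correction and the block, and 145 to 645 with a library left out, the lowest without CD274-null replicate 2. In the other pathway lists, the 2 candidates became 1 with quantile or median scaling (Trp53), without moderation (Bcl2l12) and with GC correction and the block (Naip5), 0 without trend, and 0 to 3 with a library left out. With no filter there were again 2, but Casp8 and Trp53, and GC correction alone gave 3 with Casp8 added. The replicate numbers of the labels were used as a block in 1 fit, where 21 genes were called and 526 were candidates, 0 of them members. The deviations of the libraries numbered 1 had a correlation of -0.02 across genes, so the numbers were not taken to pair the libraries. Of the 10 members Bcl2a1d had the fewest reads, 4 to 24 per library, and Bik outside them had 2 to 13.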
